A study of Triticum aestivum with 9 samples.

Results

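In filling wheat grains, 27 genes were found whose most abundant transcript isoform was one form in all 20 °C samples and another form in all 40 °C samples. They were chosen from 4996 genes that had 2 or more annotated transcripts and a summed FPKM of at least 3 in each of the 9 samples, out of 107891 genes in all. FPKM is the fragment count of a transcript corrected for its length and for the size of the library, and the share of an isoform is its FPKM as a percentage of the FPKM summed over all transcripts of the gene. A gene was taken when one isoform held more than 50% in each 20 °C sample and another isoform held more than 50% in each 40 °C sample. The shares at 20 and 40 °C therefore chose the members, and every difference between these 2 temperatures is given as a description, with no test. The 30 °C samples did not enter the choice of isoforms.

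The plants were Triticum aestivum cv. Chinese Spring, with no transgene or other agent in any group. They were moved 12 days after flowering to 20 °C chambers, where all of them adapted for 3 days. Groups of plants were then exposed for 1 h to 40 °C or to 30 °C, or stayed at 20 °C as the control, and whole grains of the main stem were frozen. RNA of 3 independent plants per temperature was sequenced. A whole grain mixes endosperm, embryo, seed coat and pericarp, so a change of isoform within cells and a change in the mix of tissues cannot be told apart, nor can fewer cells of a type and less RNA per cell. The gene IDs are not paired here with names or products, so grain markers were not checked and no role is given to any of the 27 genes.

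One gene can give several mature transcripts when an intron is kept or removed, a splice site is moved, an exon is skipped, or transcription starts or ends elsewhere. Such isoforms may encode different proteins, may differ in their untranslated ends only, or may carry an early stop codon and be degraded. Intron retention is the most frequent kind of alternative splicing in plants, and heat is known to alter the splicing of many plant transcripts, those of splicing factors among them. Bread wheat is hexaploid, and most of its genes exist as similar copies (homoeologs) on the A, B and D subgenomes, so fragments are hard to assign between copies as well as between isoforms. Which splicing event separates the isoforms of the 27 genes was not analysed here.

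Library totals of the expected count were between 15778561 and 19497182. Summed over its transcripts, a member had 78 to 2158 expected counts in one sample (median 264). Replicates of a temperature differed by more than sampling noise, with a chi-square per degree of freedom of 4.87 to 21.5, so each was kept as a separate sample. In all 27 genes some fragments were divided between transcripts by likelihood, because in none of them were the expected counts of all transcripts whole numbers in all samples (within 0.005).

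The 27 genes were 0.54% of the 4996 eligible genes. One isoform held more than 50% in every 20 °C sample in 4374 of the eligible genes, so a stable main isoform was the usual state at 20 °C. The D subgenome carried 14 of the 27, the B subgenome 10 and the A subgenome 3, while the eligible genes were divided into 33.1% on D, 34.1% on B and 31.9% on A. Of the 27 genes, 17 had 2 annotated isoforms, 6 had 3, 2 had 4, 1 had 5 and 1 had 13. Exactly 2 isoforms were annotated for 63.0% of the members and 63.3% of the eligible genes.

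The rule has a sharp edge. Just inside it, the lowest share that a main isoform reached was 50.2% in TraesCS2D02G163000 and 50.1% in TraesCS4B02G164800. Just outside it, the lowest share was 49.7% in TraesCS6A02G211400 and likewise 49.7% in TraesCS4D02G034200. Another 3 eligible genes lay at exactly 50%, and in 2 of them both isoforms stood at 50% in all 9 samples.

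The shift of the share, measured as the mean share of the 40 °C main isoform at 40 °C minus its mean share at 20 °C, ranged over the members from 7.57 to 80.1 percentage points, with a median of 31.9. It was above 50 points in 9 genes and 20 points or less in 7 genes. The gap between the lowest 40 °C sample and the highest 20 °C sample had a median of 15.0 points and reached 63.5 points, but was only 0.633 points in the narrowest gene. The spread among the 3 samples of a temperature was often of the same order, with a median range of 10.2 points at 20 °C, 13.7 points at 30 °C and 9.69 points at 40 °C.

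**Figure D1:**
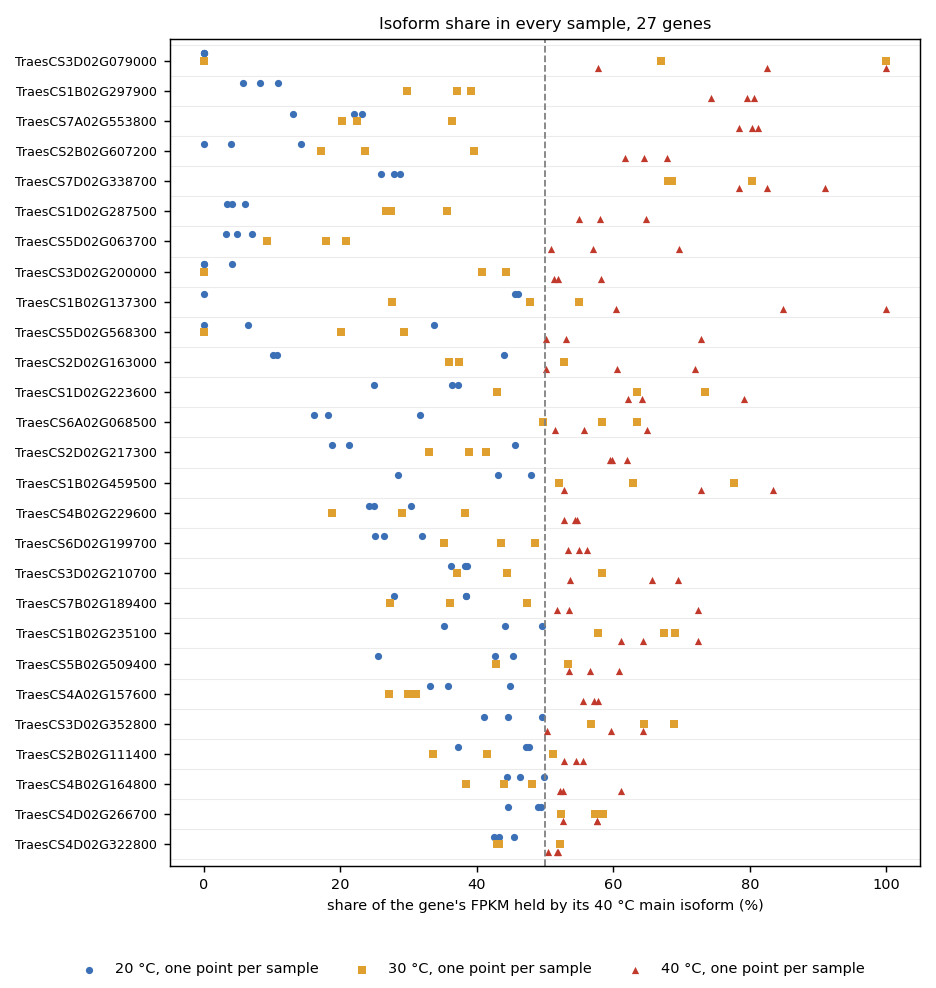
Share of the gene's FPKM held by its 40 °C main isoform (%, horizontal axis) in each of the 27 genes (rows, ordered by shift), with one point per sample (20 °C circles, 30 °C squares, 40 °C triangles) and a dashed line at 50%. By the rule all triangles lie right of the line and all circles of a gene left of its triangles, while the 30 °C squares lie left of, on and right of the line, and the gap between triangles and circles runs from 63.5 points in TraesCS1B02G297900 to 0.633 points in TraesCS3D02G352800.

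The widest gap was that of TraesCS1B02G297900, on chromosome 1B. Its isoform TraesCS1B02G297900.3, of 1015 bases, held 8.18, 10.8 and 5.73% of the gene at 20 °C, 29.7, 39.1 and 37.2% at 30 °C, and 79.7, 80.7 and 74.4% at 40 °C. The rest was almost all TraesCS1B02G297900.2, of 1066 bases, since the other annotated isoform reached at most 0.458%. The 3 temperatures did not overlap in this gene, and the 30 °C samples lay between the others. The level of isoform 3 was 2.32, 3.01 and 1.66 FPKM at 20 °C, 18.0, 19.1 and 20.1 FPKM at 30 °C, and 74.8, 93.6 and 68.8 FPKM at 40 °C. Isoform 2 stood at 26.1, 24.8 and 27.3 FPKM at 20 °C, 42.5, 29.7 and 34.0 FPKM at 30 °C, and 18.7, 22.4 and 23.7 FPKM at 40 °C. Thus the shorter isoform was higher at each step, while the longer one was highest at 30 °C and differed far less between 40 and 20 °C.

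TraesCS1D02G287500, on chromosome 1D, showed much the same picture. Its shorter isoform TraesCS1D02G287500.2, of 1309 bases against 1360 for TraesCS1D02G287500.1, held 4.07, 3.40 and 6.10% at 20 °C, 35.6, 26.8 and 27.5% at 30 °C, and 58.1, 64.7 and 55.0% at 40 °C. No sample of one temperature reached into the range of another. Its shorter isoform averaged 19.5 ± 3.82 FPKM at 40 °C, against 0.797 ± 0.255 FPKM at 20 °C (SD, n = 3 each), and the longer one averaged 13.2 ± 0.264 FPKM at 40 °C, against 16.9 ± 2.09 FPKM at 20 °C. In both genes the isoforms differ by 51 bases. The genes lie on the 1B and 1D chromosomes, but the IDs do not say whether they are homoeologs, and fragments that fit both copies would tie their values to each other.

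A second pair of members with an equal length difference lay on the same chromosomes. TraesCS1B02G235100 has isoforms of 1431 and 1572 bases, and TraesCS1D02G223600 has isoforms of 1429 and 1570 bases, so that the difference is 141 bases in each. In TraesCS1B02G235100 the shorter isoform held 44.2, 35.3 and 49.5% at 20 °C, 69.1, 57.8 and 67.4% at 30 °C, and 72.3, 64.3 and 61.2% at 40 °C. In TraesCS1D02G223600 it held 36.4, 37.2 and 24.9% at 20 °C, 73.5, 42.9 and 63.4% at 30 °C, and 64.2, 62.2 and 79.2% at 40 °C. The 30 °C samples of both genes lay above the 20 °C samples and overlapped the 40 °C samples. Unlike the pair with 51 bases, both isoforms of these 2 genes were more abundant at 40 °C than at 20 °C in all samples. The longer isoform of TraesCS1B02G235100 averaged 8.18 ± 2.20 FPKM at 40 °C, against 3.60 ± 0.558 FPKM at 20 °C, and that of TraesCS1D02G223600 averaged 8.84 ± 2.65 FPKM at 40 °C, against 4.39 ± 0.425 FPKM at 20 °C (SD, n = 3 each).

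**Figure D2:**
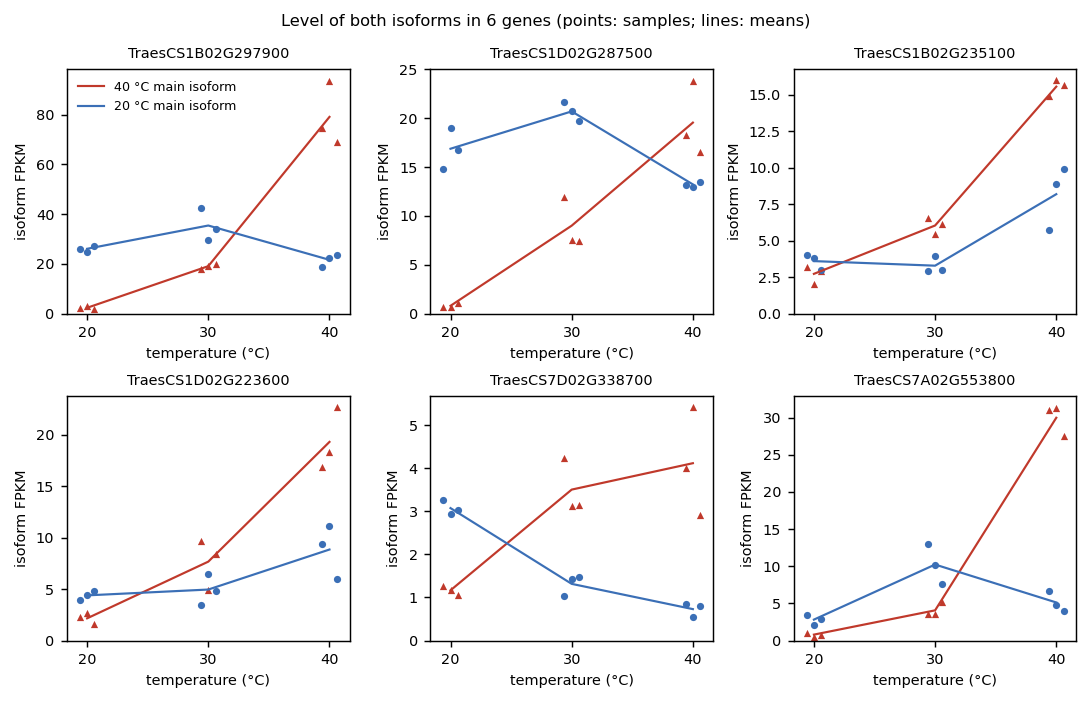
Level of the 40 °C main isoform (red triangles and line) and of the 20 °C main isoform (blue circles and line) in FPKM (vertical axes, each from 0) at 20, 30 and 40 °C (horizontal axes) in 6 genes, with points for samples and lines through the means. In TraesCS1B02G297900 and TraesCS1D02G287500 the lines cross between 30 and 40 °C, in TraesCS7D02G338700 they cross between 20 and 30 °C, and in TraesCS1B02G235100 and TraesCS1D02G223600 both isoforms are highest at 40 °C.

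TraesCS7D02G338700 was the member whose change was nearest to complete at 30 °C among those with a shift above 50 points and non-overlapping 30 and 20 °C samples. Its isoform TraesCS7D02G338700.1, of 2251 bases, held 27.8, 28.7 and 25.9% at 20 °C, 80.3, 68.6 and 68.0% at 30 °C, and 82.5, 91.0 and 78.5% at 40 °C. Its isoform 2, of 3905 bases, stood at 0.850, 0.540 and 0.800 FPKM in the 40 °C samples, against 3.27, 2.93 and 3.03 FPKM in the 20 °C samples. The shorter isoform stood at 4.01, 5.43 and 2.92 FPKM at 40 °C and at 1.26, 1.18 and 1.06 FPKM at 20 °C. The summed FPKM averaged 4.24 at 20 °C, 4.82 at 30 °C and 4.85 at 40 °C, so the isoforms changed places at a similar total.

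TraesCS7A02G553800 was switched at 40 °C but not at 30 °C. Its isoform TraesCS7A02G553800.3 held 23.2, 13.0 and 22.0% at 20 °C, 20.3, 22.5 and 36.4% at 30 °C, and 78.4, 80.3 and 81.3% at 40 °C. The 30 and 20 °C samples overlapped, and the 3 samples at 40 °C lay close together. The gene as a whole was more abundant at both higher temperatures, and at 30 °C this was mainly its 20 °C isoform, which stood at 12.9, 10.2 and 7.59 FPKM at 30 °C, against 3.44, 2.13 and 2.88 FPKM at 20 °C. At 40 °C isoform 3 averaged 30.0 ± 2.09 FPKM, against 0.797 ± 0.250 FPKM at 20 °C (SD, n = 3 each). Other isoforms of this gene held up to 35.5% in one sample, so 2 of the 5 annotated isoforms do not account for all of it.

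TraesCS2B02G607200 and TraesCS5D02G063700 also had a rare 40 °C isoform at 20 °C. In TraesCS2B02G607200 it held 14.3, 0 and 3.93% at 20 °C, 23.6, 17.2 and 39.6% at 30 °C, and 61.7, 67.9 and 64.4% at 40 °C. In TraesCS5D02G063700 it held 7.10, 3.29 and 4.84% at 20 °C, 17.9, 20.8 and 9.33% at 30 °C, and 57.0, 50.9 and 69.7% at 40 °C. The temperatures did not overlap in either gene. The 40 °C isoform is the longer one in both, by 364 bases in TraesCS2B02G607200 and by 23 bases in TraesCS5D02G063700. In TraesCS2B02G607200 its level was 6.07, 8.48 and 6.27 FPKM at 40 °C, against 0.690, 0 and 0.140 FPKM at 20 °C, and no ratio is given because one of these is listed at 0. In TraesCS5D02G063700 its mean level was 19.1 times as high at 40 °C as at 20 °C. The other isoform was at 0.863 of its 20 °C mean in TraesCS2B02G607200 and at 0.701 in TraesCS5D02G063700.

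The largest shift of all, 80.1 points in TraesCS3D02G079000, came with unstable estimates. Its isoform TraesCS3D02G079000.1 was listed at 0 in all 3 samples at 20 °C, at 100, 0 and 67.1% at 30 °C, and at 82.5, 57.7 and 100% at 40 °C. The summed level was steady, between 5.74 and 7.91 FPKM over the 9 samples, and the summed expected count was at least 133 in each, so the gene itself was well detected where an isoform was listed at 0. The isoforms have 1564 and 1612 bases. An isoform listed at 0 was given no fragments by the likelihood division, which does not show whether it was absent. No ratio is given for this isoform.

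Listed zeros were found in some other members too. The 40 °C isoform was at 0 in at least 1 sample in 5 genes and the 20 °C isoform in 2 genes. TraesCS3D02G200000, whose isoforms TraesCS3D02G200000.2 and TraesCS3D02G200000.3 have 1711 and 1708 bases, had its 40 °C isoform at 0, 4.21 and 0% at 20 °C, 40.8, 0 and 44.2% at 30 °C, and 51.4, 51.8 and 58.2% at 40 °C. TraesCS1B02G137300, with isoforms of 2800 and 2788 bases, had shares of 60.4 to 100% among its 40 °C samples, against 0 to 46.0% among its 20 °C samples. TraesCS5D02G568300, with isoforms 21 bases apart, had 0, 6.46 and 33.7% at 20 °C, 0, 29.4 and 20.1% at 30 °C, and 53.1, 72.8 and 50.2% at 40 °C. In these genes the isoforms differ by 3 to 21 bases, and replicates of one temperature differed by as much as the temperatures did in other genes. TraesCS3D02G079000 and TraesCS2B02G607200, which also had listed zeros, have isoforms 48 and 364 bases apart. TraesCS4B02G229600, with main isoforms only 3 bases apart, had no listed zero for either of them. Whether zeros go with the length difference was not tested.

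Another 8 members had shifts between 24.3 and 39.3 points, without such zeros and without a partner of equal length difference. In TraesCS2D02G163000 the 40 °C isoform held 44.0, 10.7 and 10.1% at 20 °C, 35.9, 37.5 and 52.7% at 30 °C, and 72.0, 50.2 and 60.5% at 40 °C. In TraesCS2D02G217300 it held 21.3, 45.6 and 18.8% at 20 °C, 38.9, 41.3 and 33.1% at 30 °C, and 59.5, 62.0 and 59.9% at 40 °C. One 20 °C sample in each of these genes stood apart from the other two, and the 30 °C samples overlapped the 20 °C range for that reason. TraesCS6A02G068500 was different, with 31.7, 18.2 and 16.1% at 20 °C, 63.4, 49.7 and 58.4% at 30 °C, and 51.5, 64.9 and 55.7% at 40 °C, so that the 30 °C samples lay above all 20 °C samples and overlapped the 40 °C samples. In TraesCS6D02G199700 the share averaged 27.8 ± 3.63% at 20 °C, 42.4 ± 6.74% at 30 °C and 54.9 ± 1.37% at 40 °C (SD, n = 3 each). In that gene every 30 °C sample lay between the 20 and the 40 °C samples, without overlap, a pattern found in 5 genes in all. The rule itself keeps the 20 and 40 °C samples apart, and no share over other genes is given for this count.

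TraesCS4B02G229600 and TraesCS7B02G189400 kept their 20 °C isoform at 30 °C. The share of the 40 °C isoform in TraesCS4B02G229600 averaged 26.5 ± 3.31% at 20 °C, 28.7 ± 9.75% at 30 °C and 54.0 ± 1.03% at 40 °C. In TraesCS7B02G189400 it averaged 34.9 ± 6.06% at 20 °C, 36.9 ± 10.0% at 30 °C and 59.2 ± 11.4% at 40 °C (SD, n = 3 each). In both genes the 20 °C isoform was lower at 40 °C in every sample, at 0.383 and 0.389 of its 20 °C mean. TraesCS3D02G210700, which has 13 annotated isoforms, lay in between, with 37.7 ± 1.29% at 20 °C, 46.7 ± 10.8% at 30 °C and 62.9 ± 8.28% at 40 °C for an isoform 1530 bases shorter than the other.

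At 30 °C the members were in different states. The 40 °C isoform held more than 50% in every 30 °C sample in 5 genes, TraesCS7D02G338700, TraesCS1B02G459500, TraesCS1B02G235100, TraesCS3D02G352800 and TraesCS4D02G266700. The 20 °C isoform held more than 50% in every 30 °C sample in 11 genes, and neither did in the other 11. In TraesCS1B02G459500 the 40 °C isoform held 52.1, 77.6 and 62.9% at 30 °C and 43.2, 48.0 and 28.4% at 20 °C. The rule applied with 30 °C in place of 40 °C gave 9 genes, of which 5 are members, and with 30 °C in place of 20 °C it gave 15 genes, of which 11 are members. The mean share at 30 °C lay at a median of 38.7% of the way between the means at 20 and 40 °C, with a range from -45.2 to 141%.

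Every 30 °C sample lay above every 20 °C sample in the share of the 40 °C isoform in 12 of the 27 genes, where 4.84% of the isoforms of eligible genes with a mean FPKM of at least 1 did so. Every 30 °C sample lay below every 20 °C sample in 1 gene, and separation in either direction was found for 9.29% of those isoforms. The 20 °C samples are shared with the rule, which required a share under 50% in each of them, so this comparison is not independent of the choice of members. The 30 °C mean was above the 20 °C mean in 24 genes. It was below in TraesCS4A02G157600, TraesCS2B02G111400 and TraesCS4B02G164800. In TraesCS4A02G157600 the share of the longer isoform was 33.1, 35.8 and 44.9% at 20 °C, 31.1, 27.1 and 29.9% at 30 °C, and 57.1, 55.6 and 57.8% at 40 °C. This gene alone moved away from its 40 °C state at 30 °C in all samples.

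Isoform usage at 30 and 20 °C was tested across all genes with edgeR's test of differential transcript usage, a quasi-likelihood F test per gene on expected counts. At a Benjamini-Hochberg FDR under 0.05 it called 3 of the 27 members, where 0.198% of the 3538 genes tested were called, which is 7 genes. The 20 °C samples also entered the rule, so this comparison is not independent of the choice of members. The 3 were TraesCS1B02G297900 (FDR = 1.3e-02), TraesCS1D02G287500 (FDR = 1.3e-02) and TraesCS7D02G338700 (FDR = 1.5e-02) by edgeR. In these genes the share of the 40 °C isoform was higher at 30 °C than at 20 °C by 27.1, 25.4 and 44.8 points, and every 30 °C sample lay above every 20 °C sample. An unadjusted p under 0.05 was found for 9 members, TraesCS5D02G063700, TraesCS1D02G223600, TraesCS6A02G068500, TraesCS3D02G079000, TraesCS1B02G235100 and TraesCS1B02G459500 being the others. The share of all genes tested with such a p is not given here, so no excess is read from this count or from later counts of this kind.

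These 3 calls did not hold when the samples were paired by replicate number. With the replicate number as a block the FDR was 2.1e-01 for each of the 3 genes by edgeR, no member and no other gene was called, and 11 members had an unadjusted p under 0.05. The calls were also lost in part or in full when a single sample was left out. Without any one of the 20 °C samples, or without 30 °C replicate 2, 0 members were called by edgeR (7 to 10 with an unadjusted p under 0.05). Without 30 °C replicate 1 only TraesCS1B02G297900 was called, and without 30 °C replicate 3 TraesCS1D02G287500 and TraesCS7D02G338700 were. At 40 against 20 °C the same test called 1.92% of the 3643 genes tested, and the members' calls are not given because the rule used that contrast.

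The switch of the main isoform could come from a higher level of one isoform, a lower level of the other, or both, and all of these were found. The 40 °C isoform was higher in every 40 °C sample than in every 20 °C sample in 22 genes, and the ranges overlapped in 5. Among all isoforms of eligible genes with a mean FPKM of at least 1, 13.4% were separated in this direction and 23.1% in the other. The 20 °C isoform was lower in every 40 °C sample in 12 genes, overlapped in 11 and was higher in 4. Because the rule chose on these levels, the counts describe the members and are no test.

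Both isoforms moved apart in 9 genes, the 40 °C isoform being higher and the 20 °C isoform lower in all samples. In another 9 the 40 °C isoform was higher while the 20 °C isoform overlapped. Both isoforms were higher at 40 °C in 4 genes, TraesCS7A02G553800, TraesCS1D02G223600, TraesCS6D02G199700 and TraesCS1B02G235100. In 3 genes, TraesCS1B02G459500, TraesCS7B02G189400 and TraesCS2B02G111400, the 40 °C isoform overlapped and only the 20 °C isoform was lower. In TraesCS1B02G459500 the 20 °C isoform stood at 2.57, 1.36 and 2.56 FPKM at 40 °C, against 7.16, 5.29 and 9.10 FPKM at 20 °C, while the 40 °C isoform averaged 5.51 ± 2.28 FPKM at 40 °C and 4.64 ± 0.938 FPKM at 20 °C (SD, n = 3 each). Neither isoform was separated in TraesCS3D02G352800 and TraesCS4D02G266700.

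**Figure D3:**
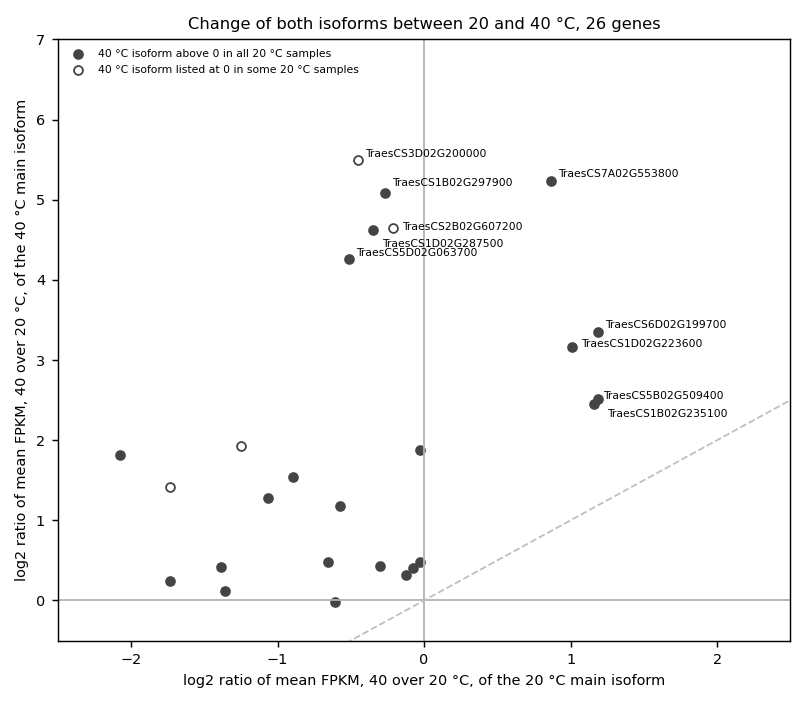
Log2 ratio of mean FPKM, 40 over 20 °C, of the 40 °C main isoform (vertical axis) against that of the 20 °C main isoform (horizontal axis) for 26 genes, one point per gene, with the line of equal change dashed; TraesCS3D02G079000 is left out because its 40 °C isoform was listed at 0 in all 20 °C samples, and open circles mark 4 genes with such a 0 in some 20 °C samples, whose ratios rest on few values. All points lie above the dashed line, as the rule requires, most lie left of 0 on the horizontal axis, and 5 genes lie clearly right of it, the 4 with both isoforms higher and TraesCS5B02G509400.

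In most of the 7 members with shifts of 20 points or less, the mean shares stayed near an even division. TraesCS4A02G157600, described above, was an exception, with a mean share of 29.4% at 30 °C. In TraesCS5B02G509400 the 40 °C isoform averaged 37.9 ± 10.7% at 20 °C, with one sample at 25.6%, 49.8 ± 6.12% at 30 °C and 57.0 ± 3.64% at 40 °C. TraesCS3D02G352800 had the narrowest gap, with 44.6, 49.6 and 41.0% at 20 °C, 64.6, 68.9 and 56.8% at 30 °C, and 64.3, 50.2 and 59.7% at 40 °C. Its mean at 30 °C lay beyond the mean at 40 °C, and the same held for TraesCS4D02G266700, by far less, with 47.7 ± 2.73% at 20 °C, 56.0 ± 3.21% at 30 °C and 56.0 ± 2.84% at 40 °C (SD, n = 3 each). TraesCS2B02G111400, TraesCS4B02G164800 and TraesCS4D02G322800 had shifts of 10.3, 8.44 and 7.57 points. In TraesCS4D02G322800 the share was 51.7, 51.9 and 50.4% at 40 °C, against 43.3, 42.6 and 45.4% at 20 °C, a change of a few points in a gene with a summed expected count of at least 1277 per sample. In TraesCS4D02G322800 and TraesCS4D02G266700 both isoforms held between 41.5 and 58.5% in every sample.

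The summed level of the members, the FPKM over all transcripts of the gene, was described separately, since a switch needs no change in it. Over the members the ratio of mean summed FPKM had a median of 1.17 at 30 °C and 1.17 at 40 °C, each over 20 °C, against 1.03 and 0.935 over all eligible genes. Its lowest and highest values were 0.732 and 3.84 at 30 °C, and 0.634 and 9.14 at 40 °C. The 2 comparisons share their 20 °C samples. Every 30 °C sample was above every 20 °C sample in 11 members, where 21.9% of eligible genes were, and none was below in all samples, where 15.2% were. At 40 °C, 11 members were above in all samples and 4 below, where 15.2% and 29.8% of eligible genes were.

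Expected counts summed per gene were compared by the quasi-likelihood F test of edgeR, with an FDR under 0.05 and a fold change above 2. The summed level rose at 30 °C in 2 members, where 3.34% of the 43314 genes tested and 2.4% of the eligible genes were higher. No member was called lower, where 2.32% of the genes tested and 0.22% of the eligible genes were, and in no member was the 30 °C ratio of summed FPKM under 1/2. TraesCS7A02G553800 had 17.5, 15.6 and 14.1 FPKM at 30 °C, against 4.48, 4.14 and 3.69 FPKM at 20 °C, with a log2 fold change of 1.95 (SE 0.16, edgeR FDR = 2.9e-05). TraesCS6D02G199700 had 10.9, 10.6 and 12.1 FPKM at 30 °C, against 4.04, 4.50 and 4.93 FPKM at 20 °C, with a log2 fold change of 1.3 (SE 0.13, edgeR FDR = 1.6e-04). The groups did not overlap in either gene. With the replicate number as a block TraesCS5B02G509400 was called as well, at a log2 fold change of 1.59 (edgeR FDR = 5.3e-05), against 1.47 (edgeR FDR = 6.3e-02) without it. Its replicates varied more than those of any other member, with 26.4, 66.5 and 65.7 FPKM at 30 °C and 6.33, 28.3 and 20.9 FPKM at 20 °C.

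At an FDR under 0.05 with no limit on the fold, 7 members passed at 30 °C, where 12.8% of all genes tested did. Beside the 2 above, these were TraesCS1B02G297900 at a log2 fold change of 0.90 (edgeR FDR = 2.1e-03), TraesCS1D02G223600 at 0.89 (edgeR FDR = 2.4e-03), TraesCS1D02G287500 at 0.72 (edgeR FDR = 1.1e-02), TraesCS5D02G063700 at 0.69 (edgeR FDR = 9.5e-03) and TraesCS3D02G352800 at 0.65 (edgeR FDR = 3.6e-02). All 7 were higher at 30 °C. TraesCS3D02G352800 was at 0.39 (edgeR FDR = 1.6e-01) with offsets for isoform length and at 0.40 (limma FDR = 2.5e-01) on summed FPKM, and it passed in neither. It also did not pass without 20 °C replicate 1 or 3 or without 30 °C replicate 2 or 3 (edgeR FDR 1.1e-01 to 1.3e-01). Without 30 °C replicate 2 TraesCS5D02G063700 did not pass (edgeR FDR = 5.2e-02), and without 20 °C replicate 3 TraesCS1D02G287500 was on the threshold (edgeR FDR = 5.0e-02). With the replicate number as a block 10 members passed, the 7 above with TraesCS5B02G509400, TraesCS1B02G235100 at 0.52 (edgeR FDR = 2.7e-02) and TraesCS1B02G459500, which was lower at -0.52 (edgeR FDR = 1.5e-02). The median log2 fold change of the members was 0.18, against -0.00 over all genes tested. Genes tested needed only a mean FPKM above 1 at either temperature, while members had a summed FPKM of at least 3 in every sample. The 12.8% and this median over all genes tested are therefore not matched to the members in level, and neither is given over the eligible genes. Counts are not corrected for transcript length, so in a gene whose isoforms differ in length the summed count moves with the isoform as well as with the level. In TraesCS7D02G338700, whose shorter isoform became the main one, the log2 fold change of the count was -0.21 at 30 °C while the ratio of summed FPKM was 1.14, and with offsets for isoform length the log2 fold change was 0.16.

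At 40 °C the ratio of mean summed FPKM over 20 °C was above 2 in 7 members, where it was in 5.22% of the eligible genes, and under 1/2 in none, where it was in 2.06%. The contrast is the one the rule used, so these values are a description and no test is given. The log2 fold change of the summed count was above 1 in 8 members, a count given without the share over all genes and from which no excess is read. It was 3.35 in TraesCS7A02G553800, 2.46 in TraesCS6D02G199700, 2.21 in TraesCS1D02G223600, 2.03 in TraesCS1B02G235100, 1.92 in TraesCS1B02G297900, 1.83 in TraesCS5B02G509400, 1.57 in TraesCS2B02G607200 and 1.01 in TraesCS1D02G287500. TraesCS7A02G553800 reached 39.6, 39.0 and 33.9 FPKM, and TraesCS1B02G297900 reached 93.8, 116 and 92.6 FPKM, against 28.4, 27.8 and 28.9 FPKM at 20 °C. These 8 include all 4 genes of the pairs with equal length differences. The value of TraesCS1D02G287500 lay between 0.85 and 1.07 over other methods and with one sample left out. In TraesCS5B02G509400 the samples overlapped, the lowest at 40 °C being 26.4 FPKM and the highest at 20 °C 28.3 FPKM. At the other end, TraesCS7B02G189400 had 4.69, 5.21 and 3.70 FPKM at 40 °C, against 6.87, 6.55 and 8.02 FPKM at 20 °C, below in all samples at a log2 fold change of -0.52.

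**Figure D4:**
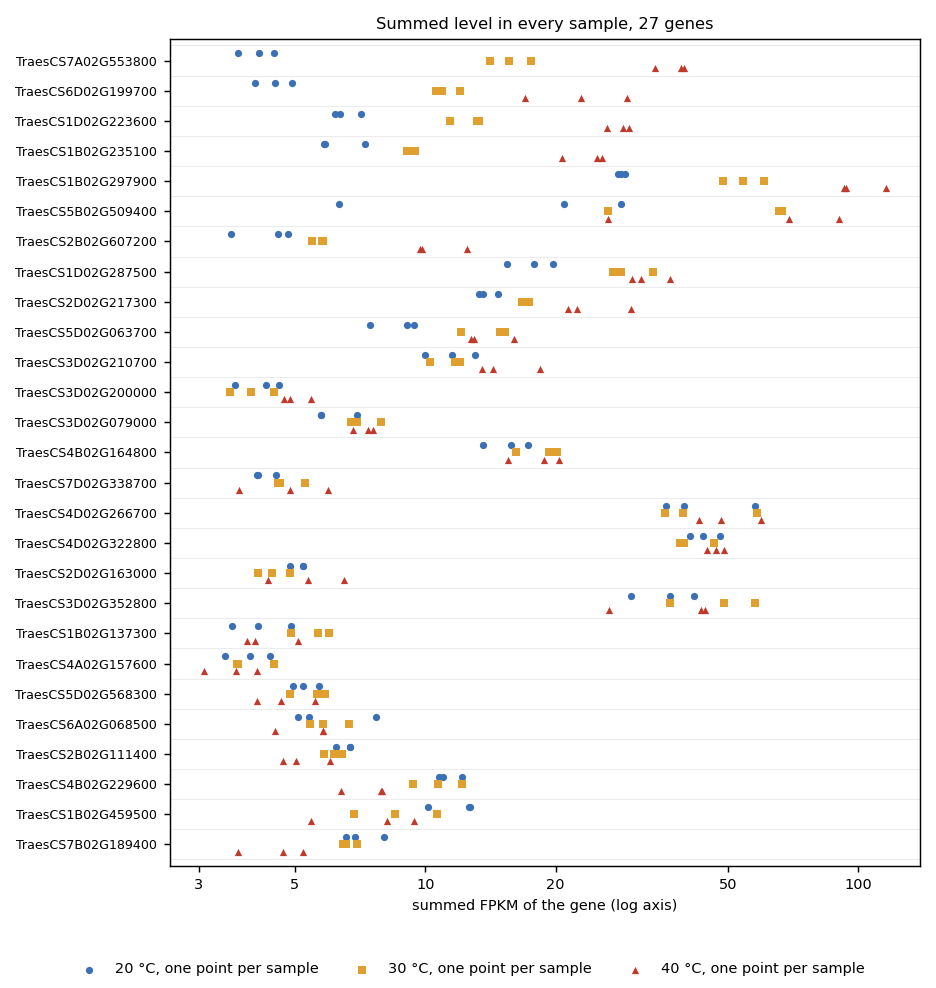
Summed FPKM of each of the 27 genes (horizontal log axis; rows ordered by the ratio of 40 over 20 °C), with one point per sample (20 °C circles, 30 °C squares, 40 °C triangles). Triangles lie right of all circles in 11 genes and left of all circles in 4, and the ratio of the means runs from 9.14 in TraesCS7A02G553800 at the top to 0.634 in TraesCS7B02G189400 at the bottom.

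The 40 °C main isoform was the shorter one in 18 genes and the longer one in 9. This is 66.7% of the members, and 69.4% of the eligible genes had a second most abundant isoform at 20 °C that was shorter than their first. The 2 isoforms differed by 107 bases in the median, against 93 bases between the first 2 isoforms of the eligible genes. The difference was 25 bases or less in 7 genes and above 500 bases in 5. The longer differences were found in TraesCS4A02G157600, whose 40 °C isoform is 2071 bases longer (4200 against 2129 bases), and TraesCS7D02G338700, whose 40 °C isoform is 1654 bases shorter. They were also found in TraesCS3D02G210700, TraesCS4D02G266700 and TraesCS4B02G164800, whose 40 °C isoforms are shorter by 1530, 701 and 652 bases. The 40 °C main isoform carried the transcript number 1 in 14 genes and the 20 °C main isoform in 10.

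**Figure D5:**
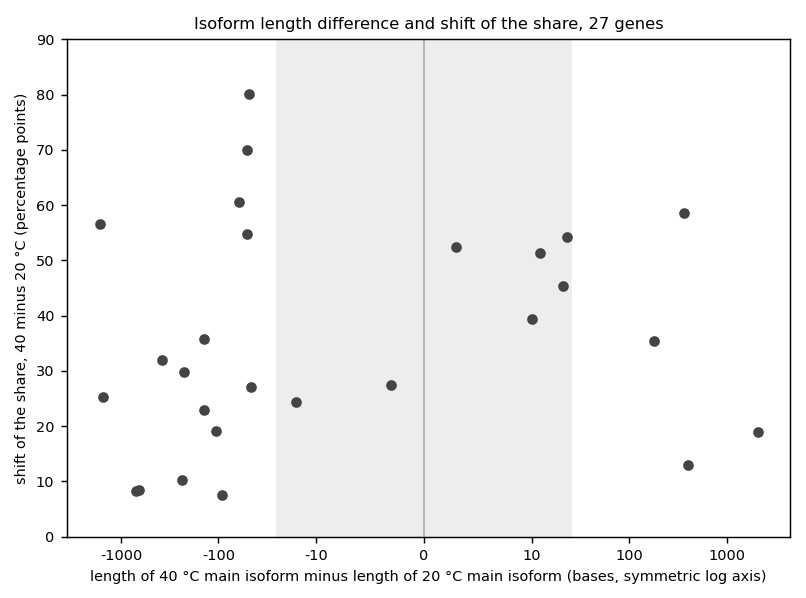
Shift of the share of the 40 °C main isoform (40 minus 20 °C, percentage points, vertical axis) against its length minus that of the 20 °C main isoform (bases, symmetric log axis, linear within 10 bases of 0), one point per gene, with differences of 25 bases or less shaded. Of the 27 points 18 lie left of 0, and both small and large length differences occur with shifts above 50 points.

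Length enters the share itself, because FPKM divides by the effective length of the transcript. With shares of the expected counts in place of FPKM the rule gave 23 genes, of which 20 are members. The 7 members lost were TraesCS2D02G217300, TraesCS3D02G210700, TraesCS3D02G352800, TraesCS4A02G157600, TraesCS4B02G164800, TraesCS4D02G266700 and TraesCS4D02G322800. In TraesCS3D02G352800 the isoforms have mean effective lengths of 580 and 183 bases, and the longer one held 84.9, 76.2 and 82.4% of the counts at 40 °C, against 72.0, 75.9 and 68.8% at 20 °C, so it was the main isoform by counts at both temperatures. Its share was higher at 40 °C by either measure, but whether the main isoform changed depended on the length correction.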

How the data were processed

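RNA of 3 plants per temperature was sequenced as paired-end reads, and the authors aligned them to the IWGSC wheat genome and quantified transcripts with RSEM. For each sample the authors deposited the expected count, TPM, FPKM and isoform percent of 133744 transcripts, with length and effective length. TPM was not used. Shares computed from FPKM differed from the deposited isoform percent by at most 0.236 percentage points. Per the labels the authors used edgeR 3.24.3 for their own tests.

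A gene is a transcript ID without its final number. The members, lists and tests were chosen with earlier results of these data known. The rule for naming genes was to name all members if there were at most 30. Isoform usage was tested with diffSpliceDGE (edgeR 4.0.16, limma 3.58.1, R 4.3.3) on transcripts with a count of at least 10 over the 6 samples compared. The summed level was tested with edgeR's quasi-likelihood test on rounded expected counts summed per gene, with TMM factors and a mean FPKM above 1 at either temperature. FDR is Benjamini-Hochberg adjusted over all genes tested, except for limma on log2 isoform ratios. That fit was adjusted over transcripts, and a gene was given the lowest FDR and the lowest unadjusted p among its transcripts. Its counts are therefore not on the same footing as those of the test per gene. The SE of a log2 fold change is its size divided by the square root of F, which restates the test. Tests were first run on simulated counts with known changes, and the outcome is not given here. Total expected counts per sample had a median of 16649548, and a count of 3 was taken as the floor. Groups and replicate numbers came from the sample titles. Same-numbered samples at 30 and 20 °C deviated together weakly (correlations 0.29, 0.12 and 0.11). The main fits had no replicate block, and a fit with the replicate number as a block is given beside them there. This pairing comes from the data and not from the labels. The members' calls at 40 against 20 °C were computed but are not reported, because the rule used that contrast. The alternatives were DESeq2 1.42.0, limma, other filters and scalings, the replicate block, and leaving out each sample. Planned keyword lists and tissue markers were not used here because no gene ID matched the reference table. Python 3.11.15, numpy 2.4.6, pandas 2.3.3 and matplotlib 3.10.9 were used.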

Additional observations from a re-analysis of the deposited data

How the results depend on the processing

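The number of members moved with the settings of the rule. It was 57 with a summed FPKM of at least 1, 8 with at least 10, 4 with a main isoform above 60% (TraesCS1B02G297900, TraesCS1D02G223600, TraesCS2B02G607200 and TraesCS7D02G338700), 0 above 75%, 171 by mean shares (all 27 included), and 36 to 50 without one 20 or 40 °C sample, where fewer samples had to pass. The members switched at 30 °C were 1 above 60%, and 5 to 8 without one 30 °C sample (8 without 30 °C replicate 2). Whole expected counts were found in only 16 eligible genes, so that alternative, at 0 members and 0 with a shorter 40 °C isoform, says nothing about the rule. Effective length left the count of shorter 40 °C isoforms at 18.

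For isoform usage at 30 against 20 °C, limma on log2 isoform ratios called 0 members (9 with an unadjusted p under 0.05) and 1 gene in all, the Simes combination 0 members (4) and 0 genes, the replicate block 0 members (11) and 0 genes, and leaving out a sample gave 0 to 2 members. A mean FPKM above 1 as filter gave 26 genes against 7 and the same 3 members. At 40 against 20 °C the genes called fell to 28 with limma, 21 with Simes and 14 with the replicate block, against 70, and lay between 29 and 65 without one sample. There the correlations of same-numbered samples were -0.08, 0.20 and -0.17, of mixed sign, and the main fit again had no block. Why these counts moved was not tested. The members called for the summed level at 30 °C were 2 to 3 in all alternatives. At an FDR under 0.05 alone they were 7, between 5 and 10 over the alternatives, and 6 with limma. The members' log2 fold change at 30 °C changed sign in at least 1 alternative in 6 genes, none of them past an FDR of 0.05 and none above 0.21 in size. One was TraesCS7D02G338700, at -0.21, which was 0.16 with offsets for isoform length and 0.18 with limma on summed FPKM. The lowest summed count, 78, was in TraesCS6A02G068500, whose shares ranged over 15.6, 13.7 and 13.5 points at 20, 30 and 40 °C. In TraesCS3D02G079000, with at least 133 counts in each sample, the ranges were 0, 100 and 42.3 points. Both of these lowest counts lay below the members' median of 264, and whether the spread of shares goes with the count was not tested.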
